A study of Mus musculus with 6 samples.

Results

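The 35 genes described here encode enzymes and scaffolds of base excision repair (16 genes), nucleotide excision repair (12 genes) and non-homologous end joining (7 genes). They were set by name, and all 35 were found among 21883 protein-coding genes on the assembled nuclear chromosomes. A gene was counted as having a peak when a listed interval touched its annotated span or came within 1000 bp of it. Chromatin immunoprecipitation and sequencing (ChIP-seq) of the transcription factor E2F1 had been done in NIH/3T3 cells, an immortalised line of mouse embryonic fibroblasts. One pair of libraries came from cells with a stably integrated construct that expresses E2F1 under doxycycline, and another pair from cells with the empty vector (EV), which also received doxycycline. All of these cells had spent 48 hours in medium with 0.25% serum and were then given doxycycline for 12 hours, at 500 ng/ml per the labels, although the names of the peak lists carry another number beside doxycycline. The labels do not say whether each line is a clone or a pool, or whether the 2 libraries of a group came from separate cultures, so the spread between them may be technical.

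Base excision repair removes small damaged bases. A DNA glycosylase cuts out the base, the endonuclease Apex1 nicks the backbone, polymerase beta fills the gap and ligase 3 with its partner Xrcc1 seals it, while Parp1 and Parp2 sense the open strand. Nucleotide excision repair removes bulky lesions such as those of ultraviolet light as a short single-stranded piece, after recognition by Xpc and the Ddb proteins or by a stalled RNA polymerase through Ercc6 and Ercc8. End joining seals double-strand breaks: the Ku proteins Xrcc5 and Xrcc6 bind the ends and recruit the kinase Prkdc, Dclre1c trims, and Lig4 with Xrcc4 and Nhej1 ligates. E2F1 is a factor best known for driving genes of the G1/S transition and of DNA replication.

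Of the 35 genes, 23 (65.7%) had a peak in both E2F1 lists, beside 34.4% of all protein-coding genes. The pathways were unlike in this count. Base excision had 13 of 16 genes (81.3%) in both lists and end joining had 6 of 7 (85.7%), while nucleotide excision had 4 of 12 (33.3%), close to the share of all genes. The strongest peak of each of those 6 end joining genes also came within 1000 bp of another protein-coding gene. A further 5 genes, all of nucleotide excision, had a peak in one list, and 7 genes had none in either. No test was made between pathways or against other genes, since these genes share functions and were picked together. Gene length moves with this count over all genes, with a median span of 26772 bp for genes with a peak in both lists and 17170 bp for all protein-coding genes. The median span was 12604.5 bp in base excision, 28216 bp in nucleotide excision and 87537 bp in end joining, so the base excision genes were short ones. The part of length in the counts was not tested.

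Peaks numbered 7836 and 8027 in the lists of the E2F1 libraries (replicates 1 and 2, in this order throughout) and 70 and 358 in those of the EV libraries. The lowest local background in a list, which rises with depth, was 1.85 and 1.86 reads in the E2F1 libraries and 2.20 and 1.18 reads in the EV libraries. Each list stops at a −log10 p of 10, so a gene without a peak is one without a site past that limit and may still hold weaker signal. No peak list can show whether the cells keep fibroblast markers.

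In single libraries, 26 of the 35 genes had a peak in E2F1 replicate 1 and 25 in E2F1 replicate 2, beside 36.9% and 38.2% of all protein-coding genes. In EV replicates 1 and 2 the count was 0 and 0, beside 0.0366% and 0.407% of all genes, so lists of that length would touch few genes of any kind. The mean was 25.5 ± 0.707 genes (SD, n = 2) in E2F1 cells and 0 ± 0 (SD, n = 2) in EV cells. The groups did not overlap. An exact permutation of the 4 libraries, taken two-sided, had p = 0.333, which is as low as 2 against 2 libraries can go, so the design cannot reach 0.05. Less E2F1 in EV cells and a poorer immunoprecipitation from them cannot be told apart.

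**Figure D1:**
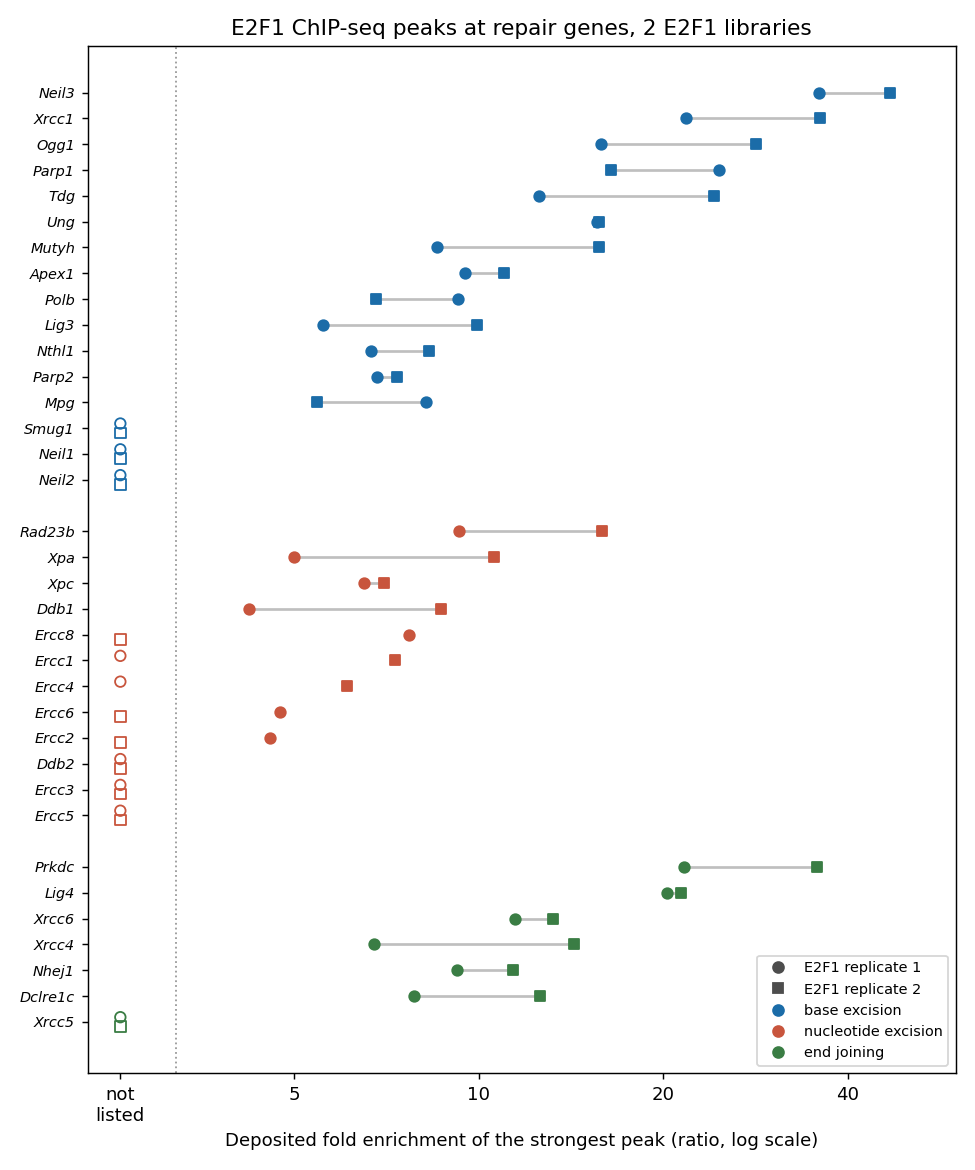
Deposited fold enrichment of the strongest peak at each of the 35 genes (horizontal axis, ratio, log scale) in E2F1 replicate 1 (circles) and replicate 2 (squares), coloured by pathway; open symbols at the left are libraries that list no peak. Neil3 stands highest, at 35.9 and 46.9, and the 5 genes with 1 filled symbol are all of nucleotide excision.

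**Figure D2:**
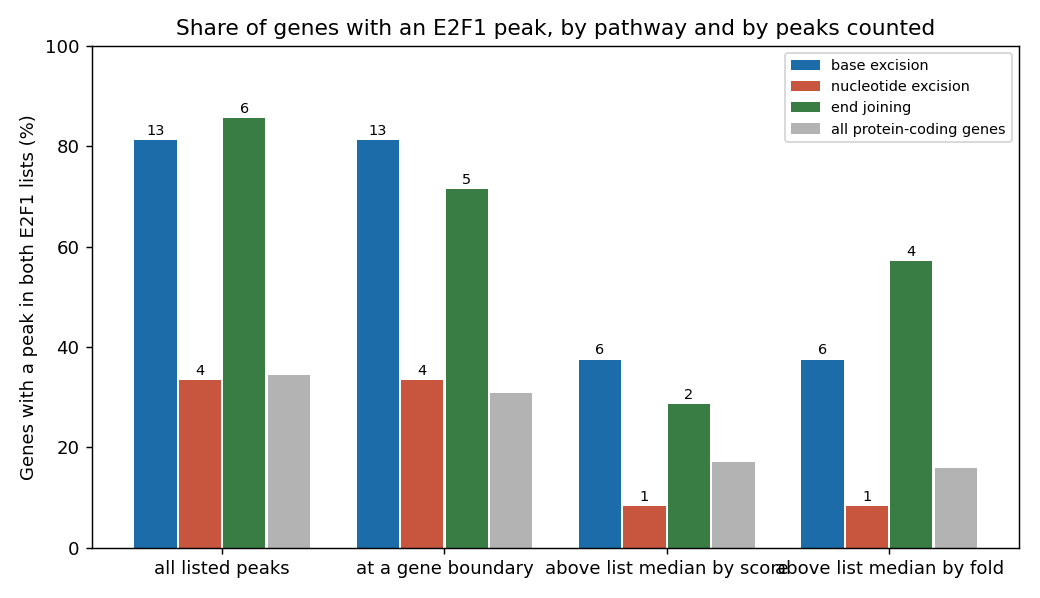
Percent of genes with a peak in both E2F1 lists (vertical axis) for the 3 pathways and for all protein-coding genes, when all peaks, peaks at a gene boundary, or peaks at or above the median score or fold of their list are counted. Numbers on the bars are genes; nucleotide excision has 4 of 12 with all peaks and 1 of 12 above either median.

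The DNA glycosylases were split: 7 of 10 had a peak in both lists and 3 had none. Neil3, which removes oxidised bases mainly from single-stranded DNA and is known from proliferating cells, had the strongest peak of all 35 genes. On chromosome 8, at 53638393 to 53639156 in replicate 1 and 53638543 to 53639292 in replicate 2, its fold was 35.9 (rank 131 of 7836) and 46.9 (rank 245 of 8027). The fold is the authors' ratio, at the summit, of the read pileup plus 1 to the local background plus 1, and the pileups behind it were 104 and 133 reads. These summits lay 197 bp and 68 bp after the annotated start of the gene. By contrast, Neil1 and Neil2, which remove the same kind of damage, had no peak in either list, and neither did Smug1, a glycosylase for uracil.

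Ogg1, which removes 8-oxoguanine, had folds of 15.8 and 28.4 with pileups of 53 and 109 reads, on chromosome 6 at 113326821 to 113327423 in replicate 1. Its summits were 20 bp and 18 bp before the start. The letters around that position are shown because they place a strong site directly on a start, with the 3 bases from one summit to the other in capitals (GRCm38, chr6:113326726-113327005, + strand, the last 30 bases lying after the start).
Ogg1: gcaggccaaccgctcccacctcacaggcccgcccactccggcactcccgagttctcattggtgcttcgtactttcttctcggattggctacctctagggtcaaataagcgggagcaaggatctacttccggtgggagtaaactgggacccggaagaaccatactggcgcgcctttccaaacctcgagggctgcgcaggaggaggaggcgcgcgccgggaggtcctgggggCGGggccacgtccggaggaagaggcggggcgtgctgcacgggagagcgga

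Tdg, which removes thymine from mismatches with guanine, had folds of 12.6 and 24.2. Ung, the main uracil glycosylase, had almost the same fold in both libraries, 15.6 and 15.7, with pileups of 103 and 93 reads and summits 468 bp and 527 bp after the start. Mutyh, which removes adenine opposite 8-oxoguanine, had folds of 8.55 and 15.7. These 3 genes sat in the middle and upper part of the lists, with mean fold percentiles (the share of a list's peaks with the same or a lower fold, averaged over both libraries) of 76.7, 72.9 and 55.4.

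The glycosylase genes with the lowest folds were Nthl1 and Mpg. Nthl1, for oxidised pyrimidines, had folds of 6.67 and 8.29, and Mpg, for alkylated purines, had 8.20 and 5.44. Mpg was the lowest of the base excision genes, with a mean percentile of 24.8, and 1 of 3 genes of the whole set whose fold was lower in replicate 2, besides Polb and Parp1. Its pileup was 42 reads in replicate 1 and 36 in replicate 2, over local backgrounds of 4.24 and 5.81 reads.

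All 6 genes acting after the glycosylases had a peak in both lists. The scaffold Xrcc1 was the highest of them by mean percentile, though below Parp1 in replicate 1, with folds of 21.8 and 36.1 on chromosome 7, at 24547030 to 24548333 in replicate 1, and pileups of 105 and 134 reads. Its summits lay 524 bp and 513 bp inside the gene. Parp1, the main sensor of strand breaks, had folds of 24.7 and 16.4, and its pileup was alike in both, 72 and 79 reads, over backgrounds of 1.96 and 3.87 reads. Both genes stood above the median fold of each list.

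The other 4 were lower. Apex1, the main abasic endonuclease, had folds of 9.50 and 11.0. Polb, the gap-filling polymerase, had 9.27 and 6.80. Parp2, a second sensor, had 6.83 and 7.35 on pileups of 19 and 20 reads, the fewest of any gene with a peak in both lists when each gene's strongest peak is taken. Lig3, the ligase, had 5.58 and 9.93, so its standing rested on the library, at percentiles of 13.3 and 42.5.

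Among nucleotide excision genes, 3 of the 4 for damage recognition had a peak in both lists. Rad23b, a partner that stabilises Xpc, was the highest, with folds of 9.29 and 15.9. Xpc itself, which finds distorted helices, had 6.49 and 7.01, the value closest between libraries in this pathway. Ddb1, the adaptor of the ultraviolet damage ubiquitin ligase, had 4.22 and 8.68, with the same pileup of 39 reads in both libraries over backgrounds of 8.48 and 3.61 reads. It was the lowest of the pathway by mean percentile, at 18.4. Ddb2, the subunit of that ligase that touches the lesion, had no peak.

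Of the remaining 8 nucleotide excision genes, Xpa alone had a peak in both lists. This lesion-verifying scaffold had folds of 4.99 and 10.6 on pileups of 29 and 30 reads. The transcription-coupled factors Ercc6 and Ercc8 had a peak in replicate 1 alone, with folds of 4.74 and 7.71. Likewise Ercc2, a helicase of the complex TFIIH that opens the helix, was listed in replicate 1 alone, at 4.57. The nuclease subunits Ercc1 and Ercc4 were listed in replicate 2 alone, at 7.31 and 6.10. Ercc3, the other helicase of that complex, and Ercc5, the other incision nuclease, had no peak in either list.

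These 5 single peaks were weak ones. Their −log10 p ran from 10.5 to 17.5, with 10 as the lowest value that a list holds, their pileups ran from 21 to 30 reads, and none was above the 37.7th percentile of fold. So for nucleotide excision the count depends on the list: 7 of 12 genes (58.3%) in replicate 1, 6 of 12 (50%) in replicate 2 and 4 of 12 in both, beside 36.9%, 38.2% and 34.4% of all genes. In single lists its share thus lay above that of all genes, and in both lists, counted within 1000 bp of the span, it did not.

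In end joining, the kinase gene Prkdc and the ligase gene Lig4 had the strongest peaks. Prkdc had folds of 21.6 and 35.7 on chromosome 16, at 15636981 to 15638092 and 15636979 to 15637979, with pileups of 74 and 101 reads. Lig4 had 20.3 and 21.3 on chromosome 8, at 9977676 to 9978330 and 9977645 to 9978233, and replicate 2 listed a second, weak peak there with a fold of 5.95. Xrcc6, the Ku70 gene, had folds of 11.5 and 13.2. Its partner gene Xrcc5, for Ku80, had no peak in either list, so the genes of this heterodimer differed.

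The rest of this pathway lay lower by mean percentile, though in replicate 2 Xrcc4 was above Xrcc6. Nhej1, a ligation cofactor, had folds of 9.22 and 11.4, both just above the median of their lists (9.19 and 11.3). Dclre1c, the Artemis nuclease, had 7.83 and 12.6. Xrcc4, the scaffold of Lig4, had 6.75 and 14.3, the lowest mean percentile here at 45.2. All 6 genes with a peak had the higher fold in replicate 2.

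**Figure D3:**
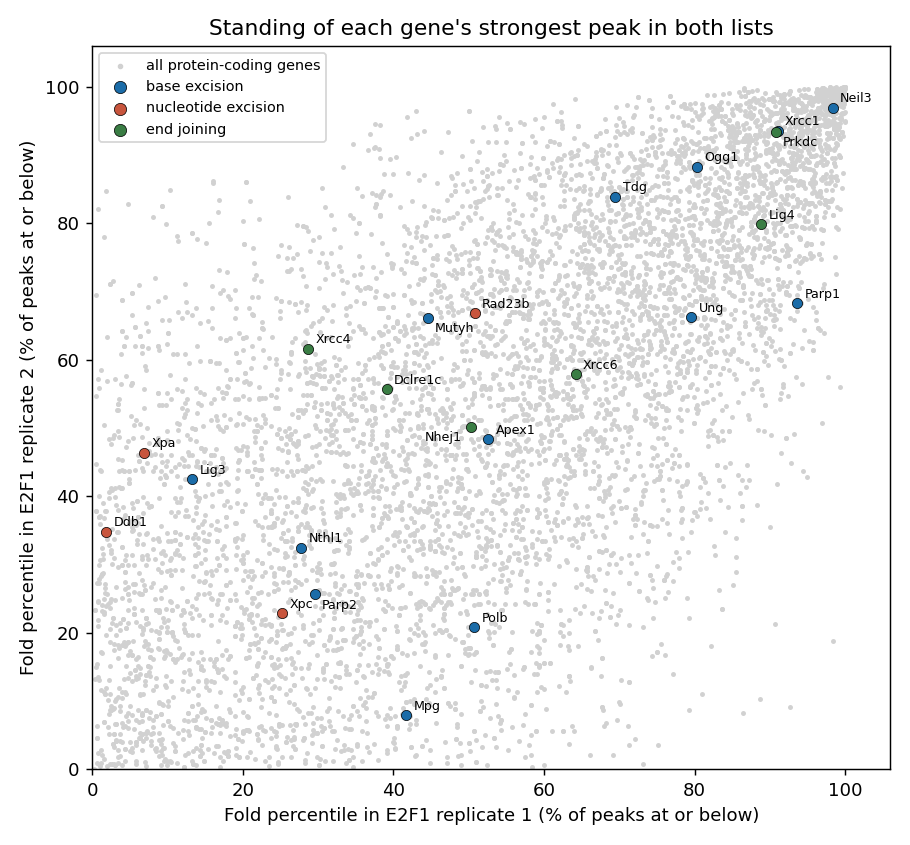
Fold percentile of each gene's strongest peak in E2F1 replicate 1 (horizontal) and replicate 2 (vertical), in percent of the list's peaks at or below it; grey points are all 7535 protein-coding genes with a peak in both lists and coloured points the 23 repair genes among them. Neil3, Xrcc1 and Prkdc lie at the upper right, while Ddb1, Xpa, Xrcc4, Lig3, Mpg and Polb are far from the diagonal.

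Across the 23 genes the fold was higher in replicate 2 for 20, beside 70.9% of all genes with a peak in both lists, and the median ratio of replicate 2 to replicate 1 was 1.31, beside 1.26. The pileup was higher in replicate 2 for 15 genes, equal for 1 and lower for 7, with a median ratio of 1.10, and the local background was lower in replicate 2 for 14. Ranks of fold in the libraries had a Spearman's rho of 0.80 over the 23 genes and 0.71 over the 7535, given as a description because genes are not replicates. The median of the mean fold percentile was 50.5 over the 23 genes and 56.1 over the 7535. The peaks of these genes thus stood near the middle of the lists.

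Counted only within 1000 bp of either gene boundary, peaks in both lists were found at 22 of 35 genes (62.9%), beside 30.9% of all genes. Xrcc6 is the gene that differs, because its annotated span begins far before the start at which its peak lies.

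A count over all members avoids choosing those with peaks. In both lists, 11 of 35 genes (31.4%) had a peak at or above the list's median fold, beside 16% of all genes. They were 6 of 16 in base excision, 1 of 12 in nucleotide excision and 4 of 7 in end joining. By the authors' score, which follows significance and so also depth, 9 of 35 (25.7%) had a peak at or above the median score of both lists, beside 17.1%. The 2 end joining genes that differ between these counts are Xrcc6 and Nhej1.

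Many of these peaks lay close to a second gene. In both E2F1 libraries the strongest peak of 13 of the 23 genes (56.5%) also came within 1000 bp of another protein-coding gene, against 30.6% and 30.5% of all genes with a peak in both lists. For these, the list cannot say which gene the site serves. The peak at Prkdc also reached Mcm4, a subunit of the replicative helicase, with summits 178 bp and 174 bp from the boundary of Prkdc and 222 bp and 218 bp from that of Mcm4. Lig4 shared its peak with Abhd13, Xrcc4 with Tmem167, Nhej1 with Slc23a3, Xrcc6 with Desi1 and Dclre1c with Suv39h2. All 6 end joining genes with a peak in both lists thus shared their strongest peak. In base excision the shared peaks were those of Mutyh with Toe1, Nthl1 with Tsc2, Apex1 with Osgep, Ung with Alkbh2 and Xrcc1 with Pinlyp. Alkbh2 is itself a repair enzyme, for alkylated bases. Xpc shared a peak with Lsm3 and Ddb1 with Tkfc.

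At some of them the summit was nearer to the neighbour. For Apex1 it lay 173 bp and 169 bp from the start of Osgep and 229 bp and 225 bp from its own. Nthl1 had its summits 101 bp and 79 bp from the start of Tsc2 and 156 bp and 134 bp from its own. The main peak of Lig4 lay 227 bp and 140 bp from the start of Abhd13, and 264 bp and 177 bp from its own. For Xrcc4 the distances were 230 bp and 79 bp to Tmem167, and 289 bp and 138 bp to its own start. For Mutyh they were 52 bp and 54 bp to Toe1, and 227 bp and 121 bp to its own start. By gene boundary the summits at Ung were also nearer to Alkbh2, at 330 bp and 271 bp, against 537 bp and 596 bp to Ung. The nearest annotated start there was still that of Ung. At Xpc the summit was nearer to Lsm3 in replicate 1 alone, at 115 bp, against 262 bp to the boundary of Xpc.

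Dclre1c differed from the rest. Its only peak lay at the far end of the gene, 50646 bp and 50916 bp from its own start, and 209 bp and 61 bp from the start of Suv39h2, a histone methyltransferase gene. It counts as a peak at Dclre1c by position alone, and the window at its own start was overlapped in neither list. Without Dclre1c, end joining has 5 of 7 genes with a peak near the start of the gene itself or, for Prkdc, whose start was not in the table used, at a boundary.

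**Figure D4:**
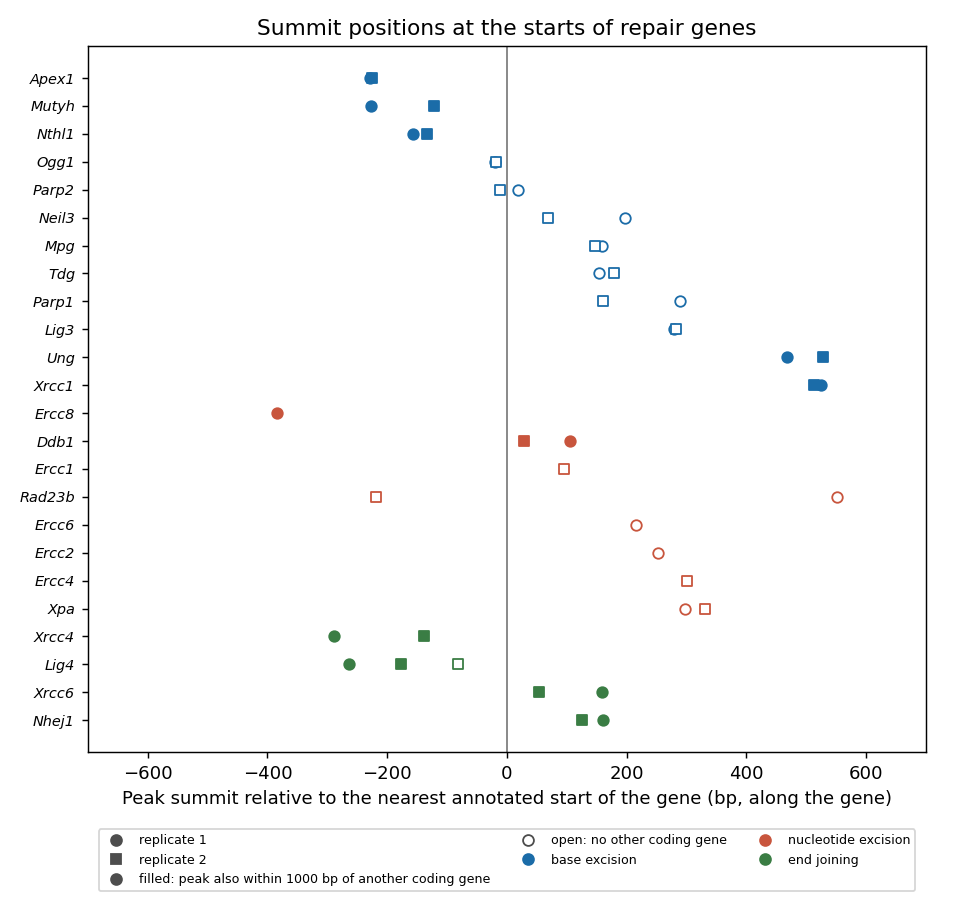
Position of peak summits relative to the nearest annotated start of the gene (horizontal axis, bp along the gene) in E2F1 replicate 1 (circles) and replicate 2 (squares) for members with a start in the table and a summit within 1000 bp; filled symbols are peaks that also come within 1000 bp of another protein-coding gene. Ogg1 and Parp2 lie on the start, Ung and Xrcc1 468 to 527 bp after it, and Apex1, Mutyh, Nthl1, Xrcc4 and Lig4 before it, each with a neighbouring gene.

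Annotated starts were at hand for 29 of the 35 genes, and not for Neil2, Polb, Xpc, Ddb2, Ercc3 and Prkdc. Of the 41 peaks at genes in both lists that have one, 39 had their summit within 1000 bp of it and 27 within 250 bp. The window from 250 bp before to 50 bp after a start was overlapped by a peak in both lists for 17 of 29 genes (58.6%), beside 30.9% of 17491 protein-coding genes with such a window. By pathway this was 10 of 14, 3 of 9 and 4 of 6, in the order base excision, nucleotide excision and end joining. Nucleotide excision thus had the lowest share at the starts too, at 33.3%, which is near the 30.9% of all genes with such a window. Base excision and end joining had similar shares, 71.4% and 66.7%, and with so few genes their order is not read. Prkdc, Polb and Xpc, each with a peak at a boundary in both lists, do not enter this count for want of a start.

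The windows were searched on both strands for the 4 words TTTCCCGC, TTTCGCGC, TTTGCCGC and TTTGGCGC, which are forms of the E2F motif. All 32851 RefSeq windows are of 27025 genes, while 17491 protein-coding genes had one, so they are not of protein-coding genes alone. Of these windows 2.26% held such a word, with 5.89% of those overlapped in both lists and 1.28% of the others. Of the 31 windows of the repair genes described here, 2 did, those of Nthl1 and Xrcc6, and both were overlapped. The same words without the first T were found in 9 of the 31 windows and in 9.57% of all. They occurred in 5 of the 17 windows of these genes that were overlapped in both lists (29.4%) and in 4 of the 14 that were not (28.6%). Over all windows the shares were 23.6% and 5.79%. Among the 4, the windows of Ercc1 and of the other start of Lig4 were overlapped in replicate 2 alone. Ercc2 had a peak in replicate 1 outside its window, and only Ercc5 had no peak. Some windows without a word, those of Lig3, Ercc4, Ercc6 and Ercc8, were also overlapped in a single list. The windows of Neil3, Ogg1 and Xrcc1, the strongest of base excision, held none of either length. Windows end 50 bp after the start, however, while the summits of Neil3 lay 197 bp and 68 bp after it. Those of Xrcc1 lay 524 bp and 513 bp after it, and its window was overlapped in neither list. For Neil3 and Xrcc1 the sequence at the summits was thus not searched.

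The sequences below, from RefSeq on GRCm38.p6, show these words in capitals, read along the strand of the gene. They cover the long words and 3 short ones at genes with a peak in both lists, and Ercc5 as a gene that holds a word and had no peak. For Xrcc6 and Ercc5 the stretch runs to 30 bases after the start (chr15:82016229-82016398, + strand, and chr1:44147494-44147773, + strand). The others are the word with 10 bases on either side, for Nthl1 (chr17:24632540-24632567, + strand), Apex1 (chr14:50924734-50924760, + strand), Lig4 (chr8:9977745-9977771, − strand) and Xrcc4 (chr13:90089692-90089718, − strand).
Nthl1: cgcgcgcgccTTTCGCGCgcaggtcctc
Xrcc6: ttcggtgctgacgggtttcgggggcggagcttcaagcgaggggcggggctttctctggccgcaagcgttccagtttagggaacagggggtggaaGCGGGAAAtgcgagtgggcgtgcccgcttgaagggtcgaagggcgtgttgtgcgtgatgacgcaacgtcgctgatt
Apex1: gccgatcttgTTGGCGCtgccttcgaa
Lig4: cctcccgggaGCGCGAAgccaacctgt
Xrcc4: cccgctgtgcTTCCCGCtcgctccagc
Ercc5: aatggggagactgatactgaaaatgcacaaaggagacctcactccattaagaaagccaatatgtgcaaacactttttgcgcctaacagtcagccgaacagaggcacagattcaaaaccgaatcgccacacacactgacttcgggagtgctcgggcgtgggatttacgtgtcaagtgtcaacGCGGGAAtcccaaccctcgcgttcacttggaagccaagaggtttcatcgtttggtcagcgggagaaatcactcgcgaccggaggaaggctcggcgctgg

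Except for Ercc5, the stretches printed above with a word also overlap a neighbouring gene. This is Tsc2 for Nthl1, Desi1 for Xrcc6, Osgep for Apex1, Abhd13 for Lig4 and Tmem167 for Xrcc4. Position alone thus does not say which gene a word serves. In Nthl1 the word began 132 bases before the start, and the summits were 24 bp and 2 bp from its nearest base. In Apex1 they were 24 bp and 20 bp from it. At Xrcc4 the distances were 189 bp and 38 bp, and at Xrcc6 197 bp and 92 bp. For the main peak of Lig4 they were 183 bp and 96 bp, while the weak second peak of replicate 2 lay 3 bp from a word in the window of its other start. The summit thus fell next to the word at Nthl1 and Apex1 in both libraries, and at the main peaks of the other 3 it lay nearer in replicate 2.

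The windows of these genes were rich in CpG, with a median of 22 per window. The median was 7 over all windows, which are not of protein-coding genes alone. It was 27 over all windows that were overlapped in both lists. Base excision, nucleotide excision and end joining had medians of 20, 22 and 29. By CpG the median of nucleotide excision was thus not below that of base excision, although a smaller share of its windows was overlapped. By content of G and C it was below, with medians of 57% in nucleotide excision, 60% in base excision and 64.3% in end joining. Windows of these genes overlapped in both lists had medians of 25 CpG and 64.3% G and C, and the others 18 and 54%. The part of composition in the counts was not tested.

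Other genes of the same pathways were counted from lists set by name. Together 25 of 41 (61.0%) had a peak in both E2F1 lists, beside 34.4% of all protein-coding genes, 8 had one in 1 list and 8 had none. Some of the 25 count by position alone, as Dclre1c does. At Aptx, Trp53bp1 and Mnat1 the summits lay 11116 to 19490 bp from the gene's own start and nearer to another gene's start. Of other base excision and strand break genes 6 of 9 had a peak in both lists. Tdp1, which frees trapped topoisomerase 1, was the highest with folds of 23.5 and 39.4, followed by Hmces, a shield of abasic sites, with 10.4 and 13.4. Parp3 had no peak.

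Other nucleotide excision genes were unlike the 12 core genes, with 12 of 19 (63.2%) in both lists. In single lists they had 13 and 14 of 19, beside 7 and 6 of the 12 core genes. Gtf2h1, another subunit of TFIIH, had folds of 25.2 and 37.6, next to the start of Hps5. Cul4b, a ubiquitin ligase scaffold, had 17.9 and 18.3, at summits inside the gene, 11357 bp and 11368 bp after its annotated start. Cetn2, Gtf2h4, Gtf2h5 and Cdk7 had no peak. Rpa1, Rpa2 and Rpa3, the single-strand binding proteins that replication also uses, are 3 of these 12, so this list is not of repair alone.

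Other end joining genes had 7 of 13 (53.8%) in both lists, also unlike their core genes (85.7%). The highest were Rif1, which guards broken ends from resection and also times replication, with folds of 24.0 and 47.2, and Mad2l2, a subunit of the shieldin complex, with 14.9 and 22.8. Paxx, Dntt and Shld1 had no peak in either list. Dntt is a lymphoid enzyme. Among the lists of other genes, the shares were 66.7% in base excision, 63.2% in nucleotide excision and 53.8% in end joining. Nucleotide excision was thus not the lowest there.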

How the data were processed

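The deposited files are 4 peak lists, one per library, in a 10-column layout without header. FastQC, Trimmomatic, Bowtie2, MACS2 and ChIPseeker, with the build mm10, are named in the submitters' processing notes without versions. The antibody and the control of each list are not given in the sources used here. The 2 input samples, both labelled as from EV cells, were not analysed, and the labels name no input from E2F1 cells. The authors' score is the deposited −log10 q-value multiplied by 10 and cut to a whole number. The deposited fold is a ratio of pileup to local background, with 1 added to each, and the deposited −log10 p-value is at least 10 in every list. Scores and folds ranked peaks within a list only.

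Gene spans and promoter windows came from RefSeq tables of GRCm38.p6, the same build as mm10, matched by symbol, with no exons. A peak was assigned to a gene when it overlapped the span or the 1000 bp around it, and the highest fold was taken for a gene with several peaks. Pileup and background were solved from fold and p as whole numbers of reads with a Poisson upper tail, within 5% of the step between pileups. This gave a solution for 100% of peaks with a −log10 p small enough to compute. The interval code was tested on simulated data. Python 3.11.15, pandas 2.3.3, numpy 2.4.6 and scipy 1.17.1 were used. Titles of the samples gave groups and replicate numbers. The number of genes with a peak was compared between libraries by exact permutation, two-sided, and pathways by counts beside all protein-coding genes.

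The genes, lists and rules were chosen with earlier results of these data known. Named genes are the 3 highest and the lowest of each pathway by mean fold percentile, every gene in one list or none, others where their role is described, and the 2 highest and those without a peak in each list of other genes. The sequences of Apex1, Lig4, Xrcc4, Ercc5 and Ogg1, the short words among them, and the limit at the median fold were chosen after the values were seen. Alternatives covered the window, the peaks counted, the overlap rule and single libraries.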

Additional observations from a re-analysis of the deposited data

How the results depend on the processing

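For 7 results, 58 alternatives were computed, of which 48 stayed within the spread or within 1.5 times and 10 did not. None changed sign, which a count or percentile cannot do. The nucleotide excision share, 33.3% beside 34.4% of all genes, did change sides. It lay above in single lists, with the span alone and with an overlap of 50% of both peaks. It was also above with a 2500 bp window (41.7% beside 35.5%) and at gene boundaries (33.3% beside 30.9%). It stayed below with a 500 bp window, a 1 bp overlap, centres within 200 bp and either median. The counts moved where weaker peaks were left out, which that setting does by construction. With peaks at or above the median score, the genes in both lists went from 23 to 9, base excision from 13 to 6, nucleotide excision from 4 to 1 and end joining from 6 to 2. With peaks at or above the median fold, chosen after the data were seen, the counts were 11, 6, 1 and 4. In a single E2F1 list, nucleotide excision had 6 to 7 genes, all members 25 to 26, base excision 13 and end joining 6. The median fold percentile was 50.7 to 57.9 in single lists against 50.5 in both, and the cause was not tested. Shorter words were found in 9 windows in place of 2, by construction.

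The gene span alone dropped Nthl1, Apex1 and Dclre1c, boundaries alone dropped Xrcc6, and a window of 2500 bp added Ercc1. Peak centres within 200 bp left 19 genes, beside 27.6% of all genes. The replicate block gave the same difference of 25.5 genes between E2F1 and EV libraries, where exact sign flips had p = 0.5, as low as 2 pairs can go. With 1 count per library, whether the replicate numbers pair the samples cannot be seen. Leaving out 1 library gave 25 to 26 genes. The limit at a −log10 p of 10 and the low pileups, from 16 reads at these genes, bound what a missing peak can mean.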
